A study of Mus musculus with 15 samples.

Results

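The 39 genes described here encode the glycolytic pathway and the cell's response to low oxygen: 2 glucose transporters, 16 glycolytic enzymes, 3 regulators of glycolytic flux, 2 monocarboxylate transporters, 3 genes of the oxygen-sensing machinery and 13 further targets of the hypoxia-inducible factors. They were taken by name from a table of 32543 genes and not by a cut on measured values, although earlier results of these data were known. All 39 were among the 15494 genes that passed the filter on low counts. They were followed in 15 subcutaneous WEHI-164 tumors, a mouse fibrosarcoma line, grown in female wild-type BALB/c mice, with 3 tumors at each of 5 harvest days. The day 0 tumors were untreated, and the tumors of days 1, 3, 5 and 7 had been injected intratumorally with poly(I:C), a synthetic double-stranded RNA that is sensed as viral RNA. The labels give 1 µg in 25 µL once a day, with 6 doses planned, but another part of the study's text gives another amount, so the dose itself is uncertain. Untreated tumors were analysed here for day 0 only, so the effect of poly(I:C) and that of tumor age and size cannot be told apart at any later day. Each tumor of a day came from its own mouse, and tumors injected with vehicle were not analysed here.

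Glycolysis splits glucose into pyruvate, and lactate dehydrogenase turns pyruvate into lactate, which the monocarboxylate transporters carry out of the cell. Under normal oxygen the prolyl hydroxylases, among them those encoded by Egln1 and Egln3, mark the HIF-1α protein for degradation. In hypoxia HIF-1α persists, pairs with ARNT and binds promoters and enhancers at a short core sequence. Most genes of the glycolytic chain, several of the lactate and glucose transporters and the genes of angiogenesis, pH control and mitophagy in the list are known targets. Solid tumors often use this program in poorly perfused areas, and activated myeloid cells use parts of it as well.

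The libraries held 23.7 M to 31.9 M estimated counts per tumor, and 3 counts corresponded to 0.0972 to 0.125 CPM (counts scaled to a common library size with TMM factors, the unit of all levels below). The lowest count of any member in any tumor was 81. Markers of the labelled tissue were present: 10 mesenchymal genes summed to 9734 to 32959 CPM per tumor and 7 epithelial genes to 37.8 to 195.9. Day 3 replicate 1 stood apart from the other 14 tumors: its mean correlation with them was 0.884, against at least 0.956 for every other tumor, and 14 skeletal muscle genes summed to 4083 CPM in it against 3.97 to 217 elsewhere. In the same tumor 12 macrophage genes summed to 7170 CPM, against 1276 to 3527 elsewhere, and 15 proliferation genes to 1319, against 2692 to 3767. The mesenchymal sum of 32959 and the epithelial sum of 37.8 were also those of this tumor, against at most 16194 and at least 116.7 elsewhere. Its 8 adipocyte genes summed to 273 CPM, against at most 59.6. The edgeR count of members at an unadjusted p under 0.05 is given with and without this tumor for most pairs of days. The folds of several members are given both ways as well. The edgeR count of the joint test, and the counts of members by direction or without overlap, are given only with this tumor. So are the counts and medians of the role groups and the folds of the other members. In whole-tumor RNA, fewer cells of a type and less RNA per cell cannot be told apart.

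The member genes were on the whole lowest on day 3 and highest on day 7, with day 7 replicate 2 as an exception. Against the untreated tumors the median log2 fold change over the 39 members was 0.15, -0.31, 0.00 and 0.28 at days 1, 3, 5 and 7, while the median over all genes tested stayed between -0.03 and 0.02 in every comparison. On day 3, 34 of the 39 members were lower than on day 0, and on day 7, 34 were higher, against 52.0% of all genes lower and 44.4% higher. Without day 3 replicate 1 the median member log2 fold change from day 0 to day 3 was -0.14. No member, and no gene of the whole table, passed an adjusted p of 0.05 in any of the 8 comparisons or in the joint test of harvest day (edgeR quasi-likelihood fit, p adjusted by Benjamini-Hochberg; 0% of the 15494 genes called). Counts at an unadjusted p under 0.05 are therefore given beside the share of all genes at that level. The exceptions are the ranges over left-out tumors and the replicate block in the last section.

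**Figure D1:**
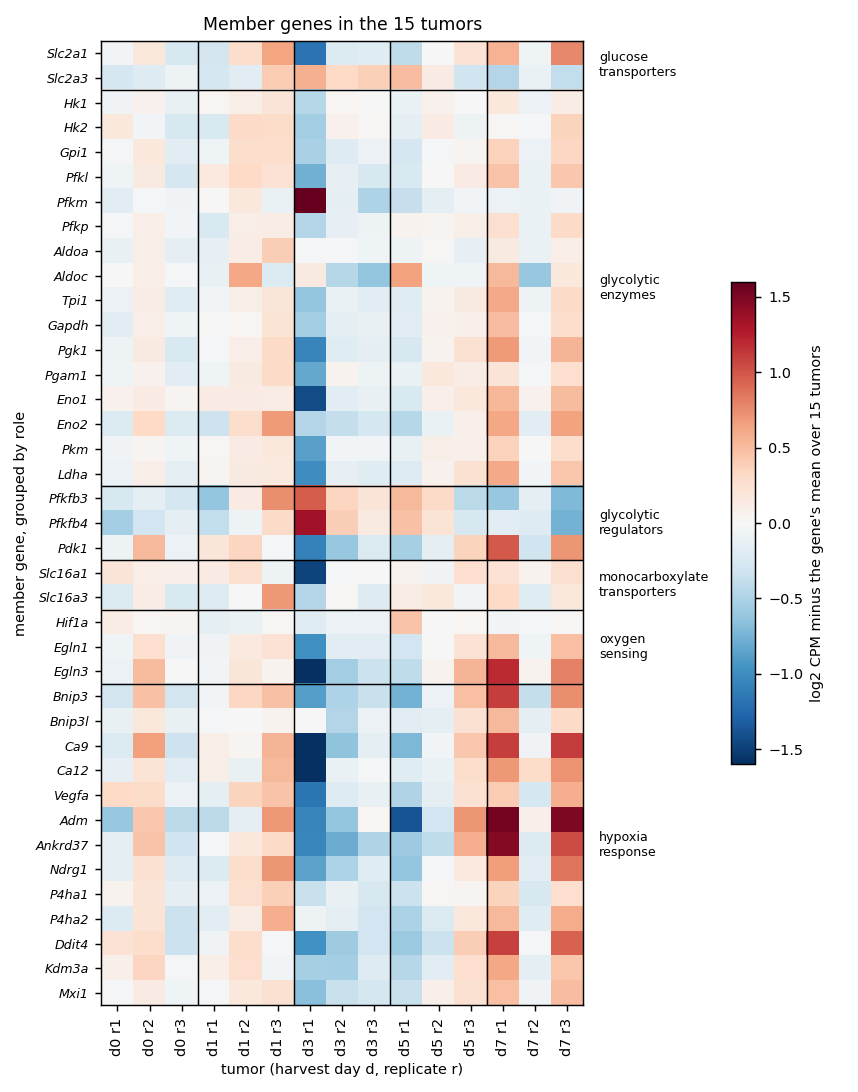
Heat map of the 39 member genes (rows, grouped by role) in the 15 tumors (columns, by harvest day and replicate). Color gives log2 CPM minus the gene's mean over the 15 tumors, with stronger values shown at the ends of the scale. Day 3 replicate 1 is the lowest tumor for 29 of the 39 genes (all genes, 36.6%). Day 7 replicates 1 and 3 are together the highest for 26 (all genes, 13.7% in replicate 1 and 7.57% in replicate 3).

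The widest separation lay between day 3 and day 7, where 29 of the 39 members had an unadjusted p under 0.05, 26 of them higher on day 7 and 3 lower (edgeR). Over all genes tested the share was 35.5%, with 12.9% higher and 22.6% lower. The 3 tumors of one day did not overlap those of the other for 25 of the 39 members, against 33.0% of all genes. The median member log2 fold change from day 3 to day 7 was 0.59, and 35 of 39 members were higher on day 7. The adjusted p was under 0.1 for 26 members, with 0.0832 as the lowest (edgeR), and the share of all genes under 0.1 is not given here. That value was also the lowest of all genes tested. It is shared by members of unlike unadjusted p (edgeR), such as Mxi1 at 0.000989 and Ldha at 0.00484, so it does not set these members apart. DESeq2 called 26 members at an adjusted p under 0.05, 23 higher and 3 lower, against 21.0% of all genes. Without day 3 replicate 1, 26 members had an unadjusted p under 0.05 (edgeR; all genes, 15.7%), the median was 0.52, the lowest adjusted p was 0.315 and DESeq2 called 3 members, Eno1, Egln3 and Ddit4. Without day 3 replicate 3, the number of members edgeR called was 13 (all genes, 13.6%), and 0 without any other single tumor.

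Among the hypoxia response genes, all 13 were higher on day 7 than on day 3, 12 of them at an unadjusted p under 0.05 (all genes higher at that level, 12.9%), with a median log2 fold change of 1.00. Ddit4, which encodes an inhibitor of mTORC1 signaling, measured 68.7, 71.2 and 46.0 CPM in the untreated tumors and 56.2, 71.1 and 57.5 on day 1. By day 3 the values were 29.9, 39.4 and 47.3, followed by 38.7, 46.0 and 77.1 on day 5 and 125, 57.9 and 113 on day 7. Both day 7 replicates 1 and 3 lay above the other 13 tumors, and day 7 replicate 2 lay within the day 0 range. The log2 fold change from day 3 to day 7 was 1.34 ± 0.31 (SE, edgeR adjusted p = 0.0832). Mxi1, which encodes a MAX-binding antagonist of MYC, measured 67.5, 74.6 and 64.9 CPM in the untreated tumors and 66.6, 76.9 and 81.1 on day 1. Levels were 42.8, 53.1 and 56.3 at day 3, 53.4, 71.9 and 80.8 at day 5 and 95.1, 65.7 and 95.8 at day 7. Its 3 day 3 tumors were all below the 3 of day 0 and the 3 of day 7, and its log2 fold change from day 3 to day 7 was 0.75 ± 0.18 (SE, edgeR adjusted p = 0.0832).

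Ankrd37, a small ankyrin repeat gene used as a hypoxia marker, measured 10.1, 15.3 and 8.97 CPM in the untreated tumors and 10.99, 12.6 and 13.8 on day 1. Ankrd37 then stood at 5.40, 6.43 and 7.98 on day 3, at 7.43, 8.43 and 16.8 on day 5 and at 31.0, 9.58 and 23.03 on day 7. The day 7 mean of 21.2 ± 10.8 CPM (SD, n = 3) lay below replicates 1 and 3, and replicate 2 was below the highest day 0 tumor. The log2 fold change was 1.68 ± 0.41 (SE, edgeR adjusted p = 0.0832) from day 3 to day 7 and 0.89 ± 0.40 (SE, edgeR adjusted p = 1.00) from day 0 to day 7. Kdm3a, a histone H3 lysine 9 demethylase that needs oxygen for its reaction, measured 103, 123 and 95.8 CPM in the untreated tumors and 104, 117 and 93.8 on day 1. The day 3 tumors had 67.2, 66.3 and 84.2, those of day 5 had 70.6, 85.4 and 117 and those of day 7 had 149, 86.9 and 132. Its day 3 tumors were below those of day 0 and of day 7 without overlap, with a log2 fold change of 0.76 ± 0.21 (SE, edgeR adjusted p = 0.0832) from day 3 to day 7.

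The promoters of the members that separated day 3 from day 7 at the lowest p are shown to place the core sequence bound by hypoxia-inducible factors. Each run of 300 bases covers 250 bases before and 50 bases after the 5′-most start listed by RefSeq (GRCm38.p6), read 5′ to 3′ on the strand of the gene, and capitals mark the letters ACGTG or GCGTG on either strand, where overlapping matches run together. The windows are chr10:59951721-59952020 (minus strand), chr19:53310256-53310555 (plus strand), chr8:45999801-46000100 (minus strand), chr12:54203825-54204124 (minus strand) and chr6:71632868-71633167 (minus strand).
Ddit4: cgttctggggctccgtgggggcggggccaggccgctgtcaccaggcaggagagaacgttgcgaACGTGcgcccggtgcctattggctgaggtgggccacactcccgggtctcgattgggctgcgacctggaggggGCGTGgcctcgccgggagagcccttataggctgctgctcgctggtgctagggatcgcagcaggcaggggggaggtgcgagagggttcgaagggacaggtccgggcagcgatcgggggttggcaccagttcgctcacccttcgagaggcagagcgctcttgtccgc
Mxi1: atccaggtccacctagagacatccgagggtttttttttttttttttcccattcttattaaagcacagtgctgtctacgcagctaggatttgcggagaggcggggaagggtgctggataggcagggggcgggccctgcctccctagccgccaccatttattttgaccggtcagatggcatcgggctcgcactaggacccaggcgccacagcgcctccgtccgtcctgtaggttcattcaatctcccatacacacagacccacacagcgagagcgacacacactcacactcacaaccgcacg
Ankrd37: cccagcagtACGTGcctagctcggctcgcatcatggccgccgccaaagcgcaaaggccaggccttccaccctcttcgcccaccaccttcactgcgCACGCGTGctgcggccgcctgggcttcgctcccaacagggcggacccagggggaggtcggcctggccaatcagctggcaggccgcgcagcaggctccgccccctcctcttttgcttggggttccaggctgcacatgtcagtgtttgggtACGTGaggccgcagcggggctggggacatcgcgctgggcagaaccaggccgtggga
Egln3: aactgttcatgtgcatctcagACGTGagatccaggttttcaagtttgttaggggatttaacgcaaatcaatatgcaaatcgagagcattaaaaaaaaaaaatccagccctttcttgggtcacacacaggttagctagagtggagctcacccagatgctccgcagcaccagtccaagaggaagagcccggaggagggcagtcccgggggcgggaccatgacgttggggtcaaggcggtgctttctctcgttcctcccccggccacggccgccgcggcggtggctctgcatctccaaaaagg
Kdm3a: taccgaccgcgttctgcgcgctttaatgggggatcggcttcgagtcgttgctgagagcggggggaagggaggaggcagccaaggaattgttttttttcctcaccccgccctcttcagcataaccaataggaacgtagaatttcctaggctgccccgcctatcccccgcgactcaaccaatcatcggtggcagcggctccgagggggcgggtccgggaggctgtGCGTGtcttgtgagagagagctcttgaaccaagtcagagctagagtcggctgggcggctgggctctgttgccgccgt
Ankrd37 held 4 matches, Ddit4 held 2, Egln3 and Kdm3a held 1 each and the Mxi1 window held 0. Of the 36 members with a promoter in the RefSeq table, 27 held at least 1 match, against 43.8% of the 27025 promoters of all genes. ACGTG stood in 20 of the 36 (all promoters, 19.6%) and GCGTG in 19 (all promoters, 32.5%). Slc2a3, Ndrg1 and Bnip3l had no entry and were not searched. A match is a description of these letters, and matches were frequent in promoters at large.

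Ca9, a membrane carbonic anhydrase that acidifies the space around hypoxic cells, measured 48.0, 88.1 and 44.4 CPM in the untreated tumors and 60.4, 57.8 and 81.4 on day 1. By day 3 the values were 15.6, 35.8 and 50.1, followed by 34.1, 54.4 and 75.2 on day 5 and 121, 53.7 and 122 on day 7. Day 7 replicates 1 and 3 lay above every other tumor and day 3 replicate 1 below every other. The log2 fold change from day 3 to day 7 was 1.54 ± 0.45 (SE, edgeR adjusted p = 0.0832), and without day 3 replicate 1 it was 1.21 ± 0.43 (SE, edgeR adjusted p = 0.315). Ca12, a related carbonic anhydrase, was the sole member whose 3 day 7 tumors all lay above the 3 of day 0, at 21.9, 16.6 and 22.2 CPM against 12.4, 15.8 and 12.0. Adm, which encodes the vasodilating peptide adrenomedullin, measured 14.8, 30.6 and 16.8 CPM in the untreated tumors and 16.8, 20.5 and 36.7 on day 1. Levels were 10.9, 14.8 and 23.2 at day 3, 8.64, 18.3 and 37.0 at day 5 and 66.0, 24.0 and 64.2 at day 7. Its spread within days was wide, since day 5 alone ran from 8.64 to 37.0 CPM, and its log2 fold change was 1.31 ± 0.54 (SE, edgeR adjusted p = 1.00) from day 0 to day 7.

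Bnip3, a mitophagy receptor, measured 111, 188 and 111 CPM in the untreated tumors and 132, 171 and 189 on day 1. Bnip3 then stood at 74.0, 97.0 and 106 on day 3, at 80.5, 128 and 191 on day 5 and at 293, 104 and 228 on day 7. The 3 day 3 tumors lay below the 3 of day 0, but day 7 overlapped both day 0 and day 3. Bnip3 differed by a log2 fold change of -0.56 ± 0.37 (SE, edgeR adjusted p = 0.291) from day 0 to day 3 and 0.61 ± 0.37 (SE, edgeR adjusted p = 1.00) from day 0 to day 7. From day 3 to day 7 the difference was 1.18 ± 0.38 (SE, edgeR adjusted p = 0.0841). Vegfa, the main angiogenic growth factor, measured 301, 294 and 225 CPM in the untreated tumors and 217, 306 and 329 on day 1. The day 3 tumors had 107, 208 and 221, those of day 5 had 172, 216 and 285 and those of day 7 had 318, 197 and 358. Tumors of day 3 were again below those of day 0 without overlap, whereas day 7 spanned the day 0 values. For Vegfa the log2 fold change was -0.62 ± 0.30 (SE, edgeR adjusted p = 0.180) from day 0 to day 3 and 0.09 ± 0.30 (SE, edgeR adjusted p = 1.00) from day 0 to day 7. From day 3 to day 7 it was 0.71 ± 0.30 (SE, edgeR adjusted p = 0.119), and 0.45 ± 0.27 (SE, edgeR adjusted p = 0.384) without day 3 replicate 1. The other hypoxia response genes, Bnip3l (mitophagy), Ndrg1 (a stress-induced differentiation gene) and P4ha1 and P4ha2 (collagen prolyl hydroxylases), had log2 fold changes from day 3 to day 7 between 0.39 and 1.00.

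**Figure D2:**
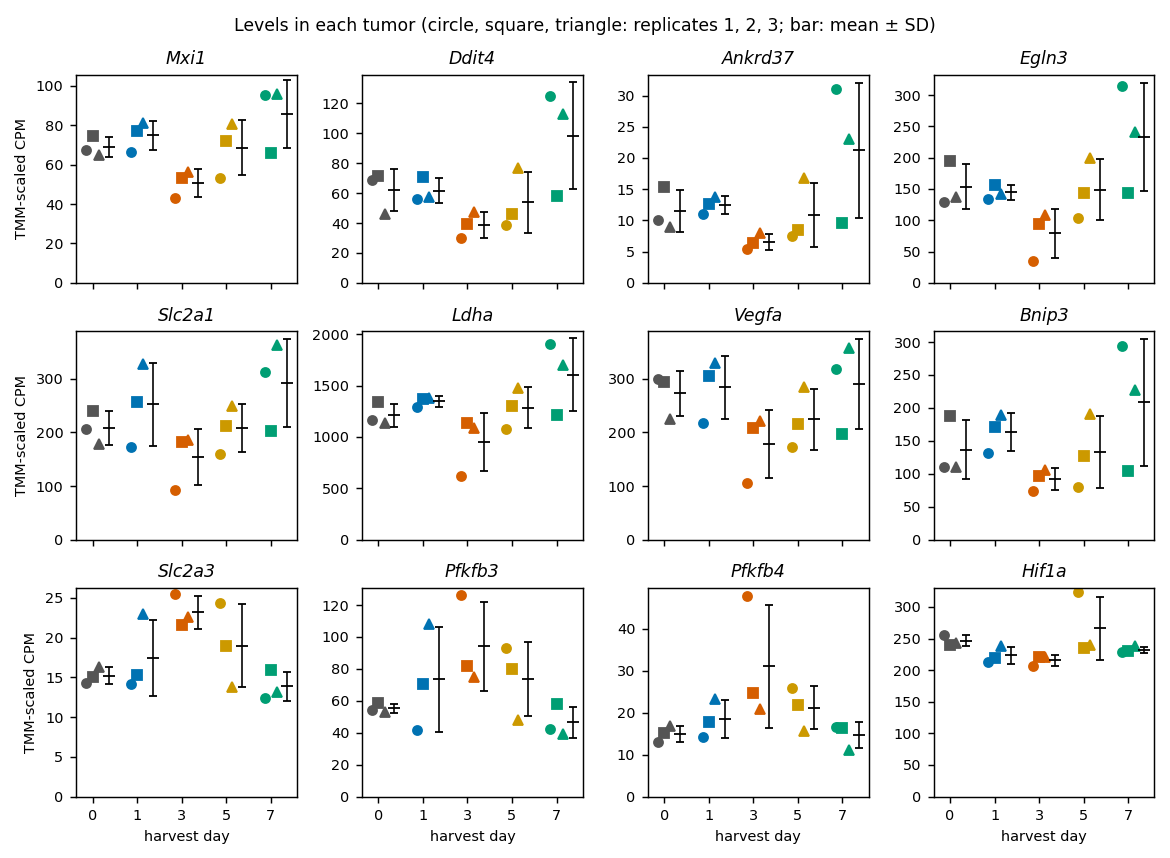
TMM-scaled CPM (y axis, from 0) of 12 members by harvest day (x axis), with 1 point per tumor, a marker for each replicate number and a bar for the mean ± SD of the 3 tumors. Mxi1, Ddit4, Ankrd37 and Egln3 are low on day 3 and high in 2 of the 3 day 7 tumors, Slc2a3, Pfkfb3 and Pfkfb4 have the opposite order, and Hif1a stays between 206 and 324.

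Among the 3 oxygen-sensing genes, Hif1a mRNA varied least over the tumors and Egln3 most, with or without day 3 replicate 1. Hif1a, which encodes the oxygen-labile subunit whose control lies mostly in protein stability, measured 256, 240.2 and 242 CPM in the untreated tumors and 212, 219 and 238 on day 1. By day 3 the values were 206, 221 and 220.3, followed by 324, 235 and 239.7 on day 5 and 228, 229.6 and 238 on day 7. Day 5 replicate 1 stood alone at 324 CPM, and the other 14 tumors lay between 206 and 256. Against day 0, Hif1a differed by log2 fold changes of -0.14 ± 0.11 (SE, edgeR adjusted p = 1.00), -0.19 ± 0.11 (SE, edgeR adjusted p = 0.250), 0.11 ± 0.11 (SE, edgeR adjusted p = 0.889) and -0.09 ± 0.11 (SE, edgeR adjusted p = 1.00) at days 1, 3, 5 and 7. The 3 tumors of days 1, 3 and 7 lay below the 3 of day 0 without overlap, although by little: the day 0 mean was 246 ± 8.68 CPM (SD, n = 3) and the day 7 mean 232 ± 5.07 CPM (SD, n = 3). From day 3 to day 7 Hif1a differed by 0.10 ± 0.11 (SE, edgeR adjusted p = 0.495), an interval of -0.12 to 0.33 at 2 SE on either side.

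Egln3, the prolyl hydroxylase most readily induced by hypoxia, spanned an 8.97-fold range over the tumors, the widest of the 39 members. Without day 3 replicate 1 it was 3.36-fold, and Adm (7.63-fold), Ankrd37 (4.82-fold), Bnip3 (3.65-fold) and Ca9 (3.57-fold) were wider. It measured 129, 195 and 137 CPM in the untreated tumors and 134, 157 and 143 on day 1. Levels were 35.0, 93.4 and 108 at day 3, 103, 143 and 199.9 at day 5 and 314, 143 and 241 at day 7. The day 3 tumors lay below every tumor of days 0, 1 and 7. Egln3 had a log2 fold change of -0.96 ± 0.39 (SE, edgeR adjusted p = 0.137) between days 0 and 3 and of 1.56 ± 0.39 (SE, edgeR adjusted p = 0.0832) between days 3 and 7, and without day 3 replicate 1 the latter was 1.21 ± 0.33 (SE, edgeR adjusted p = 0.315). Egln1, the other prolyl hydroxylase of the list, was also lower on day 3, at 71.0, 124 and 123 CPM, than on day 7, at 201, 134 and 196. Hif1a had the narrowest range of the 3, 1.57-fold over all tumors.

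The 2 glucose transporters had opposite orders. Slc2a1, which encodes GLUT1, the basal transporter of most proliferating cells, measured 206, 241 and 178 CPM in the untreated tumors and 173, 257 and 327 on day 1. Slc2a1 then stood at 93.1, 182 and 185 on day 3, at 161, 213 and 249.8 on day 5 and at 313, 202 and 362 on day 7. It was highest in day 7 replicate 3 and lowest in day 3 replicate 1, and the days 0 and 7 overlapped. Against day 0, Slc2a1 differed by log2 fold changes of 0.28 ± 0.30 (SE, edgeR adjusted p = 1.00), -0.44 ± 0.30 (SE, edgeR adjusted p = 0.307), 0.00 ± 0.30 (SE, edgeR adjusted p = 0.998) and 0.49 ± 0.30 (SE, edgeR adjusted p = 1.00) at days 1, 3, 5 and 7. From day 3 to day 7 it differed by 0.93 ± 0.31 (SE, edgeR adjusted p = 0.0845). The day 1 and day 5 values were smaller than their SE. Slc2a3, which encodes GLUT3, a high-affinity transporter found in neurons and leukocytes, measured 14.3, 15.01 and 16.3 CPM in the untreated tumors and 14.2, 15.3 and 22.9 on day 1. The day 3 tumors had 25.5, 21.5 and 22.5, those of day 5 had 24.3, 18.9 and 13.8 and those of day 7 had 12.4, 15.97 and 13.2. Its 3 day 3 tumors lay above the 3 of day 0 and the 3 of day 7. Slc2a3 had a log2 fold change of 0.61 ± 0.21 (SE, edgeR adjusted p = 0.118) between days 0 and 3 and of -0.74 ± 0.21 (SE, edgeR adjusted p = 0.0832) between days 3 and 7.

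The glycolytic enzymes formed the largest group. Between days 3 and 7, 15 of 16 were higher and 10 had an unadjusted p under 0.05 (all genes higher at that level, 12.9%), with a median log2 fold change of 0.49. From day 0 to day 7, 15 of 16 were higher as well, with a median of 0.24, but 0 had an unadjusted p under 0.05 (all genes, 2.07%). Pfkl, the liver-type subunit of phosphofructokinase, which commits glucose to the pathway, measured 187, 217 and 163 CPM in the untreated tumors and 219, 246 and 229.9 on day 1. By day 3 the values were 116, 179 and 164, followed by 166, 195 and 215 on day 5 and 269, 182 and 264 on day 7. The day 1 tumors were all above those of day 0, and those of day 7 all above those of day 3. Pfkl had a log2 fold change of 0.29 ± 0.19 (SE, edgeR adjusted p = 1.00) on day 1 and 0.34 ± 0.19 (SE, edgeR adjusted p = 1.00) on day 7 against day 0, and 0.64 ± 0.19 (SE, edgeR adjusted p = 0.0832) from day 3 to day 7.

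Ldha, which encodes the lactate-forming subunit of lactate dehydrogenase, measured 1163, 1341 and 1132 CPM in the untreated tumors and 1287, 1373 and 1384 on day 1. Levels were 624, 1138 and 1091 at day 3, 1079, 1304 and 1473 at day 5 and 1904, 1211 and 1701 at day 7. Without day 3 replicate 1 the lowest tumor was day 5 replicate 1, and the range shrank from 3.05-fold to 1.76-fold. Against day 0, Ldha differed by log2 fold changes of 0.15 ± 0.22 (SE, edgeR adjusted p = 1.00), -0.35 ± 0.22 (SE, edgeR adjusted p = 0.271), 0.08 ± 0.22 (SE, edgeR adjusted p = 0.969) and 0.41 ± 0.22 (SE, edgeR adjusted p = 1.00) at days 1, 3, 5 and 7. From day 3 to day 7 it differed by 0.76 ± 0.22 (SE, edgeR adjusted p = 0.0832). Eno1, the main enolase, measured 1389, 1442 and 1366 CPM in the untreated tumors and 1448, 1447 and 1439 on day 1. Eno1 then stood at 490.4, 1170.4 and 1214 on day 3, at 1116, 1393 and 1480.5 on day 5 and at 1918, 1382 and 1880.2 on day 7. Those of day 3 lay below those of day 0, with replicate 1 far below the other 2, and the log2 fold change from day 0 to day 3 was -0.55 ± 0.26 (SE, edgeR adjusted p = 0.180). The near-identical copy Eno1b held up to 115% of the counts of Eno1 in a tumor, so the level of Eno1 is uncertain; summed over both genes the log2 fold change was -0.48 ± 0.27 (SE) from day 0 to day 3 and 0.79 ± 0.27 (SE) from day 3 to day 7, against 0.85 ± 0.27 for Eno1 alone.

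Tpi1, Pgk1 and Gapdh, the enzymes of the middle of the pathway, were among the members with the lowest p from day 0 to day 7, at log2 fold changes of 0.36 ± 0.18 (SE, edgeR adjusted p = 1.00), 0.48 ± 0.25 (SE, edgeR adjusted p = 1.00) and 0.31 ± 0.16 (SE, edgeR adjusted p = 1.00). Gapdh ranged from 1233 to 2572 CPM over the tumors, a 2.09-fold range for a gene often used to scale expression. At the other end, Hk1 and Hk2, the hexokinases, and Aldoa, the main aldolase, had log2 fold changes from day 3 to day 7 between 0.10 and 0.25, and Aldoa had the narrowest range of all members over the 15 tumors, 1.47-fold. Without day 3 replicate 1 the range of Aldoa was the same, and Hk1 (1.25-fold), Slc16a1 (1.27-fold), Pgam1 (1.38-fold) and Pkm (1.41-fold) had narrower ones. Pfkm, the muscle-type phosphofructokinase, measured 42.4, 47.7 and 46.4 CPM in the untreated tumors and 47.8, 54.0 and 44.8 on day 1. The day 3 tumors had 154, 43.0 and 34.0, those of day 5 had 37.4, 43.2 and 46.5 and those of day 7 had 45.1, 44.6 and 46.4. It was high in day 3 replicate 1 alone, the tumor in which the skeletal muscle genes summed to 4083 CPM, and lay between 34.0 and 54.0 CPM in the other 14.

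The 3 regulators of flux divided in 2 ways. Pfkfb3 and Pfkfb4 encode the bifunctional enzymes that set fructose 2,6-bisphosphate, the activator of phosphofructokinase. Pfkfb3 measured 54.0, 58.5 and 53.1 CPM in the untreated tumors and 41.9, 70.4 and 108 on day 1. By day 3 the values were 126, 82.0 and 74.7, followed by 92.9, 79.7 and 47.8 on day 5 and 42.3, 57.7 and 39.4 on day 7. Pfkfb4 measured 12.9, 15.1 and 16.7 CPM in the untreated tumors and 14.2, 17.7 and 23.3 on day 1. Levels were 47.8, 24.6 and 20.8 at day 3, 26.0, 21.8 and 15.7 at day 5 and 16.6, 16.2 and 11.1 at day 7. For both genes the 3 day 3 tumors lay above the 3 of day 0 and the 3 of day 7. Pfkfb4 had a log2 fold change of 1.06 ± 0.31 (SE, edgeR adjusted p = 0.115) on day 3 and 0.51 ± 0.31 (SE, edgeR adjusted p = 0.859) on day 5 against day 0, and -1.08 ± 0.31 (SE, edgeR adjusted p = 0.0832) from day 3 to day 7. Pfkfb4 was the sole member that DESeq2 called from day 0 to day 3, with an adjusted p of 0.0219, and without day 3 replicate 1 that adjusted p was 0.280 and the log2 fold change 0.61 ± 0.25 (SE, edgeR adjusted p = 0.372). Pfkfb3 had one of 0.77 ± 0.32 (SE, edgeR adjusted p = 0.146) on day 3 and 0.41 ± 0.32 (SE, edgeR adjusted p = 0.863) on day 5.

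Pdk1, which encodes a kinase that closes the entry of pyruvate into the mitochondrial cycle, had the same order of days 3 and 7 as the hypoxia response genes. It measured 90.2, 136 and 88.8 CPM in the untreated tumors and 109, 121 and 93.8 on day 1. Pdk1 then stood at 44.7, 62.6 and 81.2 on day 3, at 65.6, 86.1 and 122 on day 5 and at 188, 76.2 and 156 on day 7. Its day 3 tumors lay below the 3 of day 0, day 7 replicates 1 and 3 lay above every other tumor, and day 7 replicate 2 lay among those of day 3. Pdk1 had a log2 fold change of -0.74 ± 0.33 (SE, edgeR adjusted p = 0.158) between days 0 and 3 and of 1.16 ± 0.33 (SE, edgeR adjusted p = 0.0832) between days 3 and 7. Neither of the 2 monocarboxylate transporters had an unadjusted p under 0.05 in any of the 8 comparisons or in the joint test. Slc16a1, which encodes MCT1, lay between 157 and 200.2 CPM in 14 tumors and at 59.5 in day 3 replicate 1, and its 3 day 3 tumors lay below the 3 of day 0. Slc16a3, which encodes the lactate exporter MCT4, was highest in day 1 replicate 3, at 134 CPM, and its log2 fold change from day 0 to day 1 was 0.32 ± 0.22 (SE, edgeR adjusted p = 1.00).

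**Figure D3:**
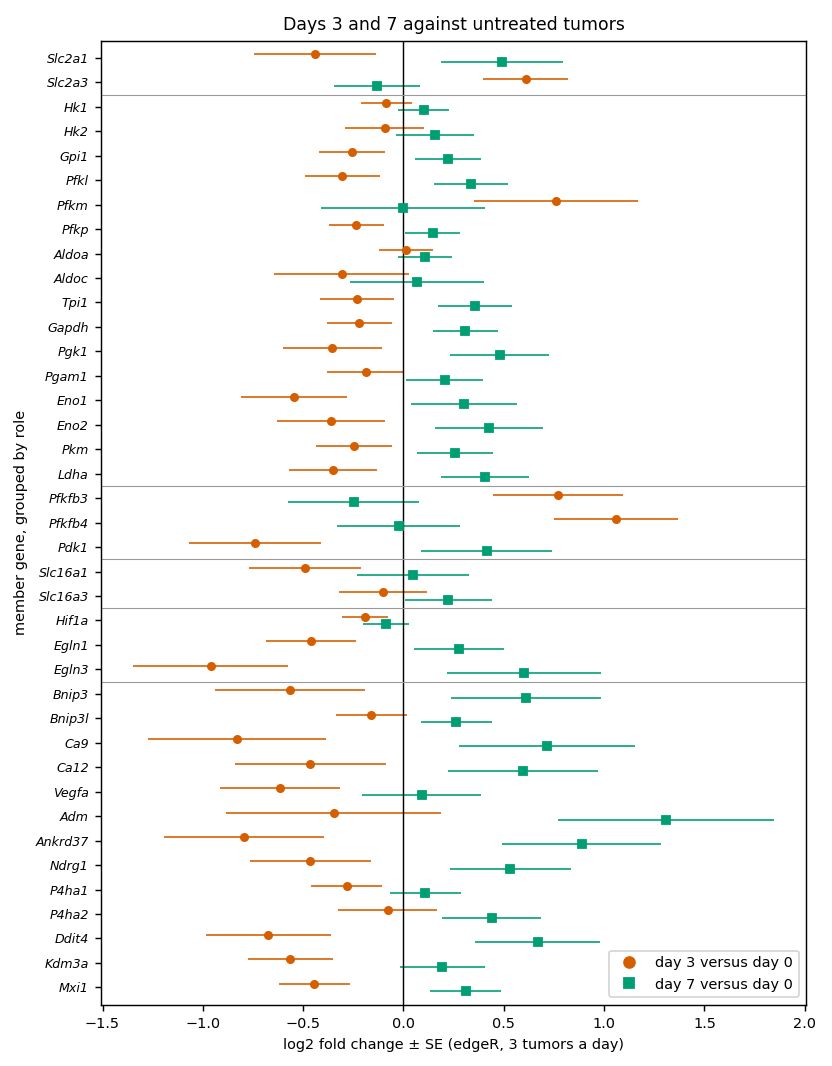
Log2 fold change (x axis) of the 39 members on day 3 (circles) and day 7 (squares) against the untreated day 0 tumors, which both comparisons share; bars are the SE from edgeR with 3 tumors a day. On day 3, 34 members lie left of 0 and on day 7, 34 lie right of 0, while Slc2a3, Pfkfb3, Pfkfb4 and Pfkm lie on the opposite side in both. Pfkm lies next to 0 on day 7, at -0.004.

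Day 3 replicate 1 moved several of these values. Without it, the log2 fold change from day 0 to day 3 was -0.23 ± 0.14 (SE) for Eno1, -0.35 ± 0.27 for Vegfa, -0.18 ± 0.28 for Slc2a1, -0.12 ± 0.17 for Ldha, -0.60 ± 0.32 for Egln3 and 0.51 ± 0.34 for Pfkfb3. Between days 3 and 7 it was 0.65 ± 0.19 for Mxi1, 1.19 ± 0.35 for Ddit4, 1.56 ± 0.47 for Ankrd37, 1.05 ± 0.43 for Bnip3, 0.97 ± 0.36 for Pdk1, 0.53 ± 0.17 for Ldha and 0.68 ± 0.29 for Slc2a1, all higher on day 7 as with that tumor. For Slc2a3 and Pfkfb4, lower on day 7, it was -0.66 ± 0.24 and -0.62 ± 0.25.

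The comparisons with the untreated tumors separated fewer members. On day 1, 33 of 39 members were higher, but 0 had an unadjusted p under 0.05 (all genes, 3.16%), and only Pfkl, higher, and Hif1a, lower, did not overlap (all genes, 12.4%). The lowest p on day 1 after Pfkl was that of Aldoa, at 0.20 ± 0.13 (SE, edgeR adjusted p = 1.00). On day 3, 7 of 39 had an unadjusted p under 0.05, against 30.0% of all genes: Pfkfb4, Slc2a3 and Pfkfb3 were higher (all genes, 18.3%) and Kdm3a, Mxi1, Egln3 and Pdk1 lower (all genes, 11.7%). The groups did not overlap for 16 members, 3 higher and 13 lower, against 38.3% of all genes, and DESeq2 called 1 member against 12.9% of all genes. Values on day 3 were -0.56 ± 0.21 (SE, edgeR adjusted p = 0.127) for Kdm3a, -0.44 ± 0.18 (SE, edgeR adjusted p = 0.135) for Mxi1 and -0.67 ± 0.31 (SE, edgeR adjusted p = 0.167) for Ddit4. When day 3 replicate 1 was left out, the count was 2 (all genes, 13.1%) and the median was -0.14; Slc2a3 then had 0.54 ± 0.24 (SE, edgeR adjusted p = 0.380). Leaving out day 0 replicate 2 gave 2 (all genes, 21.7%), day 3 replicate 3 gave 14 (all genes, 40.2%) and day 7 replicate 2 gave 11 (all genes, 29.5%).

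On day 1 the count without day 1 replicate 1 was 3 (all genes, 5.33%). On day 5, 19 of 39 members were higher than on day 0, 0 had an unadjusted p under 0.05 (all genes, 4.80%) and 0 were without overlap (all genes, 17.7%). The count was 1 (all genes, 9.59%) without day 3 replicate 1 and 1 (all genes, 10.01%) without day 5 replicate 3. Slc2a3, Pfkfb3 and Pfkfb4 had the lowest p there, with Slc2a3 at 0.32 ± 0.21 (SE, edgeR adjusted p = 0.859). On day 5 the log2 fold changes were -0.29 ± 0.30 (SE, edgeR adjusted p = 0.893) for Vegfa and -0.04 ± 0.37 (SE, edgeR adjusted p = 0.991) for Bnip3. On day 7, Adm and Ankrd37 had an unadjusted p under 0.05 (all genes, 2.07%), and Ca12, higher, and Hif1a, lower, did not overlap (all genes, 11.3%). The next lowest p on day 7 was that of Ddit4, at 0.67 ± 0.31 (SE, edgeR adjusted p = 1.00). P4ha2, at 0.44 ± 0.25 (SE, edgeR adjusted p = 1.00), and Mxi1, at 0.31 ± 0.18 (SE, edgeR adjusted p = 1.00), were the last of the 10 members with the lowest p. Without day 7 replicate 2 the count on day 7 was 17 (all genes, 3.52%) and the median 0.43. Without day 3 replicate 1, a tumor of neither day that enters through the filter, the scaling and the shared estimate of spread, it was 11 (all genes, 4.81%). Leaving out day 0 replicate 2 gave 5 (all genes, 2.07%), day 1 replicate 1 gave 1 (all genes, 1.92%), day 1 replicate 2 gave 1 (all genes, 1.78%) and day 3 replicate 2 gave 1 (all genes, 2.27%). Day 0 replicate 1 gave 0 (all genes, 0.984%), day 0 replicate 3 gave 0 (all genes, 1.23%), day 7 replicate 1 gave 0 (all genes, 1.20%) and day 7 replicate 3 gave 0 (all genes, 1.69%).

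From day 1 to day 3 the median member log2 fold change was -0.46, and -0.31 without day 3 replicate 1. With all tumors 19 members had an unadjusted p under 0.05, 18 lower and Pfkfb4 higher, against 18.4% of all genes, and 18 members lay lower without overlap, against 14.3%. Leaving out day 3 replicate 1 gave 3 (all genes, 3.93%), day 1 replicate 2 gave 3 (all genes, 6.67%), day 1 replicate 3 gave 7 (all genes, 27.8%) and day 5 replicate 2 gave 12 (all genes, 15.8%). From day 3 to day 5, Egln3, Hif1a and Mxi1 were higher at an unadjusted p under 0.05 (all genes, 7.93%), and Hif1a and Pfkp did not overlap (all genes, 9.84%). Leaving out day 3 replicate 1 gave 1 (all genes, 2.504%), day 3 replicate 2 gave 8 (all genes, 21.4%) and day 3 replicate 3 gave 9 (all genes, 17.0%). Day 5 replicate 1 gave 6 (all genes, 11.6%), day 5 replicate 2 gave 1 (all genes, 4.79%), day 5 replicate 3 gave 1 (all genes, 2.70%) and day 7 replicate 2 gave 5 (all genes, 7.68%). From day 5 to day 7, Adm, Ankrd37 and Ddit4 were higher at that level (all genes, 3.02%) and Ca12 did not overlap (all genes, 7.62%). Here leaving out day 7 replicate 2 gave 23 (all genes, 10.9%), day 5 replicate 3 gave 15 (all genes, 11.3%) and day 3 replicate 1 gave 8 (all genes, 7.37%). Day 1 replicate 3 gave 8 (all genes, 5.14%), day 1 replicate 1 gave 7 (all genes, 3.17%) and day 5 replicate 2 gave 1 (all genes, 1.59%). Day 5 replicate 1 gave 0 (all genes, 0.558%), day 7 replicate 1 gave 0 (all genes, 1.07%) and day 7 replicate 3 gave 0 (all genes, 0.725%). In the joint test over the 5 days, 9 members had an unadjusted p under 0.05 (all genes, 16.2%), namely Ankrd37, Ddit4, Egln3, Kdm3a, Mxi1, Ndrg1, Pfkfb4, Pfkl and Slc2a3, and DESeq2 called Ankrd37, Ddit4, Egln3, Mxi1 and Pfkfb4 (all genes, 7.59%). Jointly, leaving out day 7 replicate 2 gave 25 (all genes, 19.4%), day 3 replicate 3 gave 14 (all genes, 21.7%), day 5 replicate 3 gave 14 (all genes, 19.1%), day 7 replicate 1 gave 2 (all genes, 10.4%) and day 7 replicate 3 gave 2 (all genes, 10.9%). Harvest day took up a median of 47.1% of the variance of a member's log2 CPM, with Mxi1 highest at 62.8% and Pfkm lowest at 14.8%, against a median of 38.2% over all genes. With 3 tumors a day such a share is well above zero even without any effect of day, and this baseline was not subtracted.

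Tumors of the same day differed in most members at once. Day 7 replicate 2 was the lowest of its day for 35 of the 39 members (all genes, 35.5%), and day 3 replicate 1 for 30 (all genes, 46.1%). Day 5 replicate 1 was the lowest of its day for 30 and day 5 replicate 3 the highest for 28, against 40.4% and 41.9% of all genes. The untreated tumors differed in the same manner, with replicate 2 the highest for 33 members against 36.1% of all genes. For Ca9 this meant 48.0, 88.1 and 44.4 CPM among 3 untreated tumors. On day 1, replicate 3 was the highest for 28 members (all genes, 42.0%) and had 134 CPM of Slc16a3 and 108 of Pfkfb3.

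**Figure D4:**
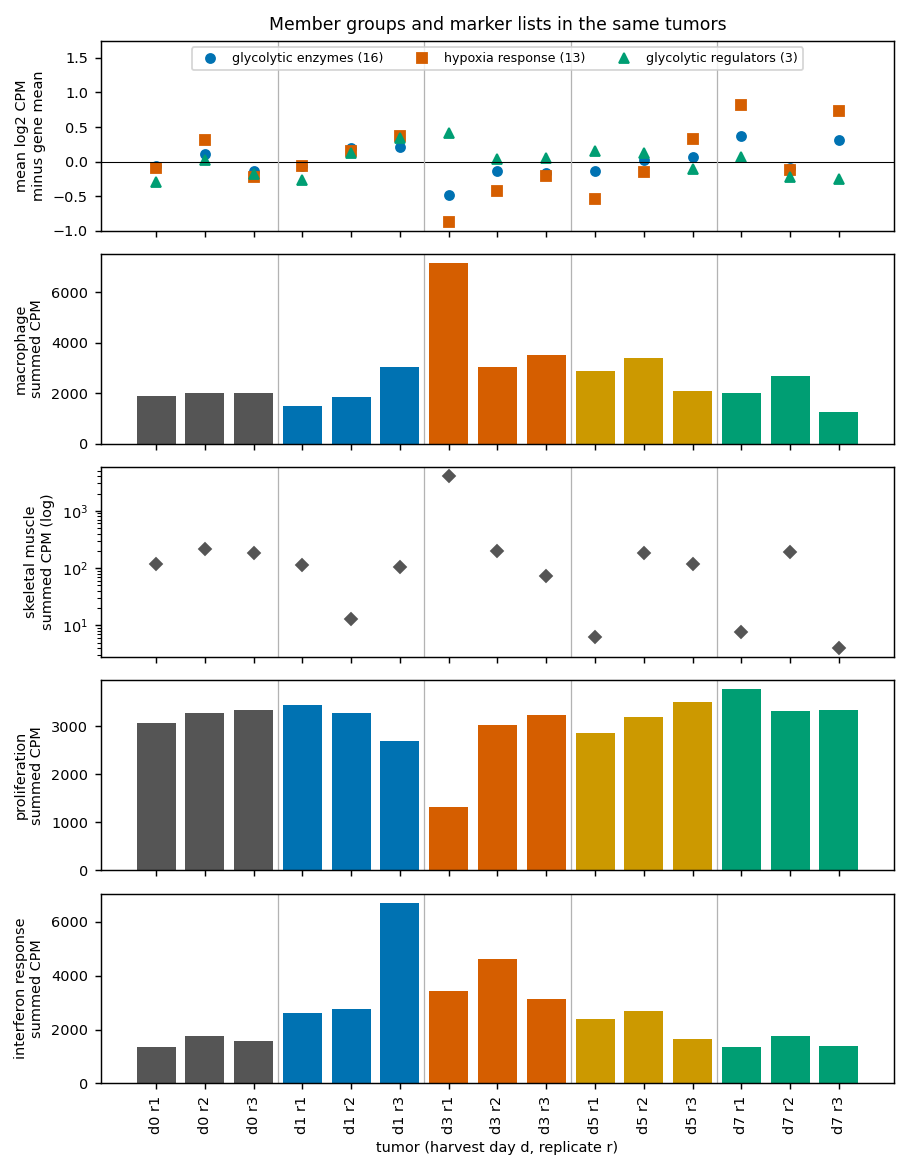
For each of the 15 tumors (x axis), the upper panel gives the mean over 3 member groups of log2 CPM minus the gene's mean over all tumors, and the lower panels give the summed CPM of the macrophage, skeletal muscle (log axis), proliferation and interferon response lists. The hypoxia response group is lowest in day 3 replicate 1, at -0.88, and highest in day 7 replicates 1 and 3, at 0.81 and 0.74.

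Of the 11 marker lists, 6 had no overlap in summed CPM between the tumors of day 3 and day 7, namely macrophage, T cell, neutrophil, interferon response, erythroid and proliferation, and their part in the members' differences was not tested. The macrophage list summed to 3044 to 7170 CPM on day 3, against 1888 to 2032 on day 0 and 1276 to 2691 on day 7, and none of its 12 genes was at 0 in any tumor. The day 7 tumor with low members, replicate 2, had the highest macrophage sum of its day (2691 CPM, against 2027 and 1276) and the highest skeletal muscle sum (194.5 CPM, against 7.65 and 3.97). Of the 14 skeletal muscle genes, 1 and 5 were at 0 in day 7 replicates 1 and 3. Day 5 replicate 1 also had a low skeletal muscle sum, at 6.30 CPM with 2 of the genes at 0, and was the lowest of its day for 30 members. The T cell list summed to 173.8 to 558 CPM on day 3, 58.7 to 84.3 on day 0 and 28.0 to 106.5 on day 7. The neutrophil list (9 genes, at most 1 at 0 in a tumor) summed to 74.2 to 198 CPM on day 3, 30.0 to 42.3 on day 0 and 12.7 to 62.0 on day 7. The erythroid list (7 genes, at most 2 at 0) summed to 10.2 to 28.7 CPM on day 3, 9.57 to 22.1 on day 0 and 29.0 to 221 on day 7, and the proliferation list to 1319 to 3235, 3068 to 3347 and 3318 to 3767. The mesenchymal, epithelial, skeletal muscle, adipocyte and endothelial sums overlapped between day 3 and day 7. The interferon response list was highest on day 1, at 2620 to 6715 CPM, and on day 3, at 3139 to 4622, against 1339 to 1751 on day 7 and 1367 to 1742 on day 0. Day 1 replicate 3 had 3029 CPM of macrophage genes, against 1500.2 and 1866 in the other day 1 tumors, and there Slc2a3, Pfkfb3 and Pfkfb4 measured 22.9, 108 and 23.3 CPM, against 14.2 to 15.3, 41.9 to 70.4 and 14.2 to 17.7.

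Levels of genes that share a step were compared per kilobase of merged exons, since CPM alone grows with transcript length. Aldoa exceeded Aldoc, the brain-type aldolase, in all 15 tumors by a median of 263-fold, and Slc2a1 exceeded Slc2a3 in all by a median of 26.2-fold, with 7.54 in day 3 replicate 1 as the lowest and 56.8 in day 7 replicate 3 as the highest. With the longest coding transcript as length the Slc2a1 to Slc2a3 median was 15.4-fold. Eno1 exceeded Eno2, the neuronal enolase, in all tumors by a median of 13.7-fold. This ratio leaves out the counts of Eno1b and shares the uncertainty of the Eno1 level. Pfkl exceeded Pfkp, the platelet-type subunit, in all tumors (median 2.38-fold) and Pfkm in 14 (median 2.27-fold), with a ratio of 0.375 in day 3 replicate 1. Hk1 exceeded Hk2 in all tumors, by 1.03 to 1.48-fold. Slc16a1 exceeded Slc16a3 in all tumors (median 2.54-fold), or in 14 with coding transcript length, where day 3 replicate 1 had a ratio of 0.975. Pfkfb3 exceeded Pfkfb4 (2.30-fold), Bnip3 exceeded Bnip3l (1.99-fold) and P4ha1 exceeded P4ha2 (4.67-fold). Egln3 exceeded Egln1 in 14 tumors, with a median Egln1 to Egln3 ratio of 0.738, and the order turned in day 3 replicate 1 at 1.503.

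**Figure D5:**
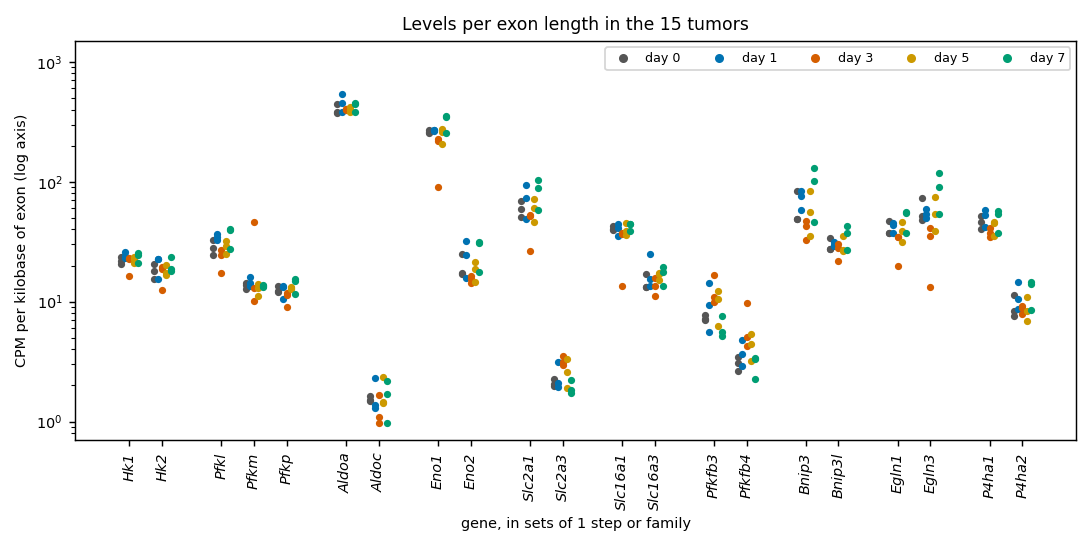
Levels in CPM per kilobase of merged exon (log y axis) of the genes that share a step or family (x axis), with 1 point per tumor colored by harvest day. Aldoa and Aldoc lie furthest apart, with a median ratio of 263, and the low or high day 3 point of Pfkm, Eno1, Slc16a1 and Egln3 is replicate 1. Eno1 is shown without Eno1b.

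Genes of the same pathways outside the 39 did not share one direction. Of 41 other hypoxia targets, 16 were higher and 6 lower on day 7 than on day 3 at an unadjusted p under 0.05, against 12.9% higher and 22.6% lower of all genes, with a median log2 fold change of 0.16. The same shares apply to the counts of the next lists. The lowest p among them were those of Plod2, a collagen lysyl hydroxylase, at 1.03 ± 0.25 (SE, edgeR adjusted p = 0.0832), Mif, a cytokine and tautomerase, at 0.62 ± 0.16 (SE, edgeR adjusted p = 0.0832), and Bhlhe40, a transcriptional repressor, at 0.73 ± 0.20 (SE, edgeR adjusted p = 0.0832). Of 27 other glycolysis genes tested, 6 were higher and 9 lower, with a median of -0.02, and 5 of the 32 listed did not pass the filter. The lowest p were those of Pdk4, at -3.17 ± 0.82 (SE, edgeR adjusted p = 0.0832), Ldhb, at -2.01 ± 0.61 (SE, edgeR adjusted p = 0.0832), and Slc2a4, at -2.98 ± 0.94 (SE, edgeR adjusted p = 0.0832), which are all expressed in muscle or fat. They measured 25.6, 25.8 and 11.8 CPM in day 3 replicate 1 against at most 4.82, 8.64 and 1.14 elsewhere. Of 13 other oxygen-sensing genes, 4 were higher and 3 lower, with a median of 0.06. Elob, an adaptor of the ubiquitin ligase that recognizes HIF-1α, had 0.30 ± 0.09 (SE, edgeR adjusted p = 0.0832), Os9 had -0.57 ± 0.18 (SE, edgeR adjusted p = 0.0841) and Arnt2, a partner of HIF subunits, had -1.45 ± 0.58 (SE, edgeR adjusted p = 0.1103).

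Several members share exons with genes on the other strand or have near copies, and the sources used here do not state whether the pseudo-alignment used strand. By GENCODE M21 (GRCm38), 22.7% of the exon bases of Ankrd37 (chromosome 8, bases 45996902 to 46005707) are shared with exons of the opposite-strand gene Lrp2bp, and 22.3% of those of Bnip3 (chromosome 7, bases 138890836 to 138909519) with the antisense gene Gm45507. Of Mxi1 (chromosome 19, bases 53310518 to 53375810), 2.84% are shared with Gm10197. No exon of Ddit4 (chromosome 10, bases 59949669 to 59951834), Egln3 (chromosome 12, bases 54178981 to 54203860) or Kdm3a (chromosome 6, bases 71588972 to 71632990) overlaps an exon of another annotated gene.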

How the data were processed

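RNA was measured in 15 WEHI-164 tumors by poly(A) RNA-seq with single-end reads of 100 bases. The authors quantified transcripts with kallisto on GRCm38 and summed them to genes with tximport; the transcript set is not given in the sources used here. The deposited values are estimated counts per gene, stored as whole numbers, and they were used without further rounding. 1 entry whose name had turned into a date was left out (at most 0.0268% of a tumor's counts). Groups came from the labelled harvest day, and replicate numbers did not mark shared animals.

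A gene was tested where 3 or more tumors had over 0.366 CPM, the filter of the study's methods, whose text names no test for the time course. All 15 tumors entered 1 edgeR quasi-likelihood fit with TMM factors and harvest day as the term, two-sided, with Benjamini-Hochberg adjustment over all 15494 genes and a threshold of 0.05. Log2 CPM used a prior count of 2. The members, gene lists and tests were chosen with earlier results of these data known. Fold changes with their SE are given for the 10 members with the lowest p on day 3 and day 7 against day 0 and on day 7 against day 3, for the 3 with the lowest p on days 1 and 5, and always for Hif1a, Slc2a1, Ldha, Vegfa and Bnip3; of each other list, the 3 genes with the lowest p are named. Other members are named only with levels, ranges or counts, and Eno1 on day 7 against day 3 and the 5 members with all 3 tumors of each day on opposite sides of the day 0 mean are named outside this rule, after their values were seen.

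Alternatives were DESeq2, RLE size factors, no filter on low counts, a fit of the days compared alone, a replicate block, limma voom with sample quality weights, leaving out each tumor, CPM from total counts, and coding transcript length. DESeq2 without day 3 replicate 1 and the sum of Eno1 and Eno1b were added after seeing the data. The fits were tested on simulated data. No pair of tumors had equal counts, and within a day the tumors differed by 9.32 to 269 times the sampling noise (chi-square per degree of freedom over genes). P-values measure the spread between single tumors, and intervals cover no error of the read assignment. The sequences are from RefSeq (GRCm38.p6) and the gene models from GENCODE M21. R 4.3.3, edgeR 4.0.16, limma 3.58.1, DESeq2 1.42.0, Python 3.11.15, pandas 2.3.3 and matplotlib 3.10.9 were used.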

Additional observations from a re-analysis of the deposited data

Results flagged for a closer look

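For 5 of the 39 members the 3 tumors of day 3 all lay below the day 0 mean of log2 CPM and the 3 tumors of day 7 all lay above it (all genes, 2.45%), so that the tumors of these days lay on opposite sides of the untreated mean. The reverse order was looked for as well and held for 0 members (all genes, 2.74%). Either order thus held for 5 members, against 5.18% of all genes. Gapdh, the dehydrogenase of the middle of glycolysis, differed from day 0 by -0.22 ± 0.16 at day 3 and by 0.31 ± 0.16 at day 7 (log2), a difference of 0.53 ± 0.16 (SE, edgeR adjusted p = 0.0832). Pgk1, phosphoglycerate kinase, differed from day 0 by -0.35 ± 0.25 at day 3 and by 0.48 ± 0.25 at day 7 (log2), a difference of 0.83 ± 0.25 (SE, edgeR adjusted p = 0.0832). Pkm, pyruvate kinase, differed from day 0 by -0.25 ± 0.19 at day 3 and by 0.26 ± 0.19 at day 7 (log2), a difference of 0.51 ± 0.19 (SE, edgeR adjusted p = 0.0992). Ldha, the lactate-forming subunit, differed from day 0 by -0.35 ± 0.22 at day 3 and by 0.41 ± 0.22 at day 7 (log2), a difference of 0.76 ± 0.22 (SE, edgeR adjusted p = 0.0832). Ca12, a carbonic anhydrase, differed from day 0 by -0.47 ± 0.38 at day 3 and by 0.60 ± 0.37 at day 7 (log2), a difference of 1.06 ± 0.38 (SE, edgeR adjusted p = 0.0918). For Ldha this holds on the log2 scale only, since day 7 replicate 2, at 1211 CPM, lay just below the day 0 arithmetic mean of 1212. None of the 5 differences passed an adjusted p of 0.05, and these p-values rest on the same tumors by which the 5 genes were picked. The day 0 tumors are shared by both days, so the 2 values of a gene are not independent, and day 3 replicate 1 was the lowest tumor for all 5.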

How the results depend on the processing

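By edgeR 0 members were called in any comparison, also with RLE size factors, without the filter, with the replicate block and in a fit of the days compared alone. DESeq2 called 1 member from day 0 to day 3, 26 from day 3 to day 7 and 5 in the joint test; without day 3 replicate 1 it called 3 from day 3 to day 7. Voom with quality weights, which gave day 3 replicate 1 a weight of 0.0719, called 1 on day 3 (Slc2a3) and 1 on day 5 (Pfkfb4) against day 0, 5 from day 3 to day 7 and 13 in the joint test. Over all genes DESeq2 called 2003 on day 3 against day 0 and 3260 from day 3 to day 7, voom 1186 and 529, and DESeq2 without that tumor 85 and 93; voom called 2458 on day 5 against day 0 and 3864 in the joint test. The cause was not tested.

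Counts of members at an unadjusted p under 0.05 moved by over 1.5 times as follows. The share of all genes at that level is not given for the alternative fits, so their counts cannot be set against it here. With DESeq2 they were 11 on day 3 and 6 on day 7 against day 0, 6 from day 3 to day 5, 6 from day 5 to day 7 and 23 jointly. In a fit of the days compared alone they were 1 on day 1, 1 on day 5 and 8 on day 7 against day 0, 10 from day 1 to day 3 and 0 from day 3 to day 5. With voom they were 1 on day 1, 4 on day 5 and 19 on day 7 against day 0, 1 from day 3 to day 5, 26 from day 5 to day 7 and 27 jointly. With DESeq2 without day 3 replicate 1 they were 3 on day 3, 1 on day 5 and 14 on day 7 against day 0, 4 from day 1 to day 3, 17 from day 5 to day 7 and 14 jointly. Leaving out 1 tumor at a time gave 0 to 3 on day 1, 2 to 14 on day 3, 0 to 1 on day 5 and 0 to 17 on day 7 against day 0, 3 to 23 from day 1 to day 3, 1 to 9 from day 3 to day 5, 0 to 23 from day 5 to day 7, 22 to 31 from day 3 to day 7 and 2 to 25 jointly, with 0 to 13 called from day 3 to day 7 (over all genes 2104 without day 3 replicate 3, the tumor behind the 13).

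The replicate numbers did not pair the tumors: 9 of 30 pairs with the same number had deviations correlated over 0.1, against 28 of 60 with different numbers, and the replicate block gave 1 member on day 7 against day 0 and changed no other count by over 1.5 times. Of 1306 values of named members under the alternatives, 1256 kept direction and side of the threshold, 31 passed the threshold in the same direction, 19 small values changed direction with no call on either side and 0 reversed with a call. With the longest coding transcript as length, the median ratio was 2.23 for Hk1 to Hk2, 3.51 for Pfkl to Pfkm, 1.31 for Pfkl to Pfkp, 422 for Aldoa to Aldoc, 15.4 for Slc2a1 to Slc2a3, 21.6 for Eno1 (without Eno1b) to Eno2 and 1.72 for P4ha1 to P4ha2. Scaling by total counts in place of TMM shifted the mean member level of day 1 replicate 3 by -0.05 (log2) and of the other tumors by less. With 3 tumors a day the spread between tumors, not depth, limits these comparisons.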
